A study of Mus musculus with 12 samples.

Results

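The genes described here are 37 imprinted protein-coding genes of the mouse that lie outside the Peg10, Grb10 and Cdkn1c loci, chosen by name from a list of known imprinted genes, out of 35975 genes with matched transcripts. They were followed in 12 bulk RNA sequencing libraries of primordial germ cell-like cells (PGCLCs), cultured counterparts of the first germ cells of the embryo. All cultures derived from E14TG2a embryonic stem cells, which were maintained in 2i with vitamin C. The TKO cells lack functional Dnmt1, Dnmt3a and Dnmt3b, as is known of the study, and the other cells were wild type (WT). Both were converted to epiblast-like cells (priming) and then induced as floating aggregates for 4 days, using the growth factors BMP4, BMP8, SCF and EGF together with LIF. The compared groups were TKO primed for 40 h (TKO_40h), 48 h (TKO_48h) or 96 h (TKO_96h) and WT primed for 40 h (WT_40h), with 3 biological replicates each. WT was sequenced at a single priming time, so in TKO_48h and TKO_96h against WT_40h the genotype and the priming time cannot be told apart. The titles name no separate clones of either genotype, and whether the germ cell-like cells were sorted before RNA extraction is not stated in the labels.

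An imprinted gene is expressed mainly from the copy inherited from one parent. At most such loci this is set by a differentially methylated region (DMR) that gains DNA methylation in the egg or in the sperm and keeps it through the genome-wide loss of methylation in the early embryo, where ZFP57 binds the methylated hexamer TGCCGC and recruits TRIM28. In mouse embryos without Dnmt1, Igf2 and Igf2r are known to be repressed while H19 is expressed from both copies. A smaller set of genes is silenced on the maternal copy through H3K27me3, known mostly from the early mouse embryo and the placenta. Primordial germ cells erase these marks, and culture of stem cells in 2i is known to lower DNA methylation in wild type as well. Neither methylation nor the parental origin of the reads was measured here, so a gene's counts are the sum of both copies.

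The members were grouped by the copy that is expressed and the copy that carries the germline mark. The first class holds 15 paternally expressed genes whose DMR is methylated on the maternal copy, among them Peg3, Mest, Plagl1 and Snrpn. The second class holds 12 maternally expressed or maternally biased neighbours of such DMRs, among them Igf2r, Gnas, Copg2 and Atp10a. The third holds 5 paternally expressed genes controlled by a paternally methylated DMR (Igf2, Dlk1, Rtl1, Dio3 and Rasgrf1). The fourth holds 5 paternally expressed genes linked to H3K27me3 (Sfmbt2, Slc38a4, Gab1, Jade1 and Smoc1). Of the 37 genes, 35 passed the filter on low counts and were tested, while Kcnk9 and Dio3 did not pass it.

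The ZFP57 hexamer was looked for on both strands, as TGCCGC and GCGGCA, in the 250 bases before each RefSeq transcript start on GRCm38.p6. RefSeq starts were found for 32 of the 37 members, and none for Smoc1, Impact, Kcnk9, Trappc9 and Rtl1. The hexamer occurred before 5 of 14 genes of the first class (35.7%: Mcts2, Mest, Nap1l5, Plagl1 and Zdbf2), 2 of 10 of the second (20%: Copg2 and Zim1), 0 of 4 of the third and 0 of 4 of the fourth. Among all RefSeq genes the share was 9.84% (2660 of 27025). The windows of the members held a median of 13.5 CG dinucleotides, against 6 over all RefSeq starts. The hexamer itself contains a CG, so these shares are not matched for CG content. A match is a string of letters and not a bound site, and the DMR of a gene can lie outside this window. The windows of 4 paternally expressed genes are shown because Plagl1 and Peg3 were the members called in TKO_40h against WT_40h and because Mest and Zdbf2 hold the most copies of the hexamer. Capitals mark the hexamer, and each window is written 5′ to 3′ on the strand of its gene: Plagl1 at chr10:13090582-13090831 (plus strand, 19 CG dinucleotides), Peg3 at chr7:6730420-6730669 (minus strand, 8 CG), Mest at chr6:30737800-30738049 (plus strand, 14 CG) and the upstream start of Zdbf2 at chr1:63200108-63200357 (plus strand, 13 CG).
Plagl1: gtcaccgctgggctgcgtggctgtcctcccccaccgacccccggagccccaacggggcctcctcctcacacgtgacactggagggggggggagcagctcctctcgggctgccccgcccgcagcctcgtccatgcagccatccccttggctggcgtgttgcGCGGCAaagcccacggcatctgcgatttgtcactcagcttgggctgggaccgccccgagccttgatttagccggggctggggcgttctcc
Peg3: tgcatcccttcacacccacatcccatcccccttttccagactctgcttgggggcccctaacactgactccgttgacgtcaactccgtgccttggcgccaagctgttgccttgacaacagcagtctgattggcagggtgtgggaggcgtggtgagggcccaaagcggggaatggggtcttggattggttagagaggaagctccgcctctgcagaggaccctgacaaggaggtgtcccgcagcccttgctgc
Mest: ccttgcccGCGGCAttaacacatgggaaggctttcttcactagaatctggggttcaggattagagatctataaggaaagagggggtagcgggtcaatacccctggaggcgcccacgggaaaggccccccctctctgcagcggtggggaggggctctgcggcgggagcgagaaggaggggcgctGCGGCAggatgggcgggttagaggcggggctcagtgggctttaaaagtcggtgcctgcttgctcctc
Zdbf2: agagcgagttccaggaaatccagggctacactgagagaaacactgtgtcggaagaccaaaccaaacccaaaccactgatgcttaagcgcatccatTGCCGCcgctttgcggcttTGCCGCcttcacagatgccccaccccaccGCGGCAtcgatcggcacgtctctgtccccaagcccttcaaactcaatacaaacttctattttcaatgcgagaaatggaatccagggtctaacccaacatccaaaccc
The Plagl1 window held 1 hexamer, the Mest window 2 and the Zdbf2 window 3, while the Peg3 window held 0. The second RefSeq start of Zdbf2, at chr1:63273019-63273268, held 0 hexamers among 26 CG dinucleotides. The Peg3 window overlaps that of Usp29 (chr7:6730333-6730582, plus strand), since both genes start head to head.

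Libraries held 6570180 to 9114128 estimated counts, which limits what can be said of the members with few counts. The targeted Dnmt1 had 115 to 130 CPM (counts scaled to the library size) in TKO_40h, 64.9 to 121 CPM in TKO_48h and 132 to 152 CPM in TKO_96h, against 426 to 450 CPM in WT_40h. Dnmt3a had 59.7 to 67 CPM in TKO_40h, 25.4 to 48.7 CPM in TKO_48h and 57.4 to 73.1 CPM in TKO_96h, against 358 to 436 CPM in WT_40h, and Dnmt3b was also lower in each TKO group; the labels do not say which part of each gene was deleted, so reads outside it may be counted. Correlations of log2(CPM + 0.5) between libraries of a group ran from 0.943 to 0.965 and were lowest in TKO_48h. The germ cell markers Prdm1, Prdm14, Tfap2c, Nanos3 and Dnd1 summed to 82.1 to 89.9 CPM in TKO_40h, 124 to 133 CPM in TKO_48h and 60.1 to 61.7 CPM in TKO_96h, against 84.8 to 112 CPM in WT_40h. In bulk samples, fewer cells of a type and less RNA per cell cannot be told apart.

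The members differed widely in level. By the deposited TPM, the scale used here to compare genes because it accounts for transcript length, 17 of the 37 members averaged at least 10 TPM in WT_40h. The highest was Jade1, a subunit of the HBO1 histone acetyltransferase complex, at 107 TPM, followed by Gnas at 85, Mest at 81.8, Gab1 at 59.4 and Impact at 48.8 TPM. Mkrn3, Rasgrf1, Dio3, Magel2 and Kcnk9 averaged under 1 TPM. In this order the WT_40h replicates of most neighbours overlapped. Only Jade1 and Gnas, Slc38a4 and Copg2, Inpp5f and Mcts2, and Atp10a and Rtl1 stood apart from each other. Apart from Plagl1 and Zdbf2, TPM were not set side by side between groups, since 1 transcript took 14.1 to 22% of all TPM and its share was highest in TKO_48h.

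**Figure D1:**
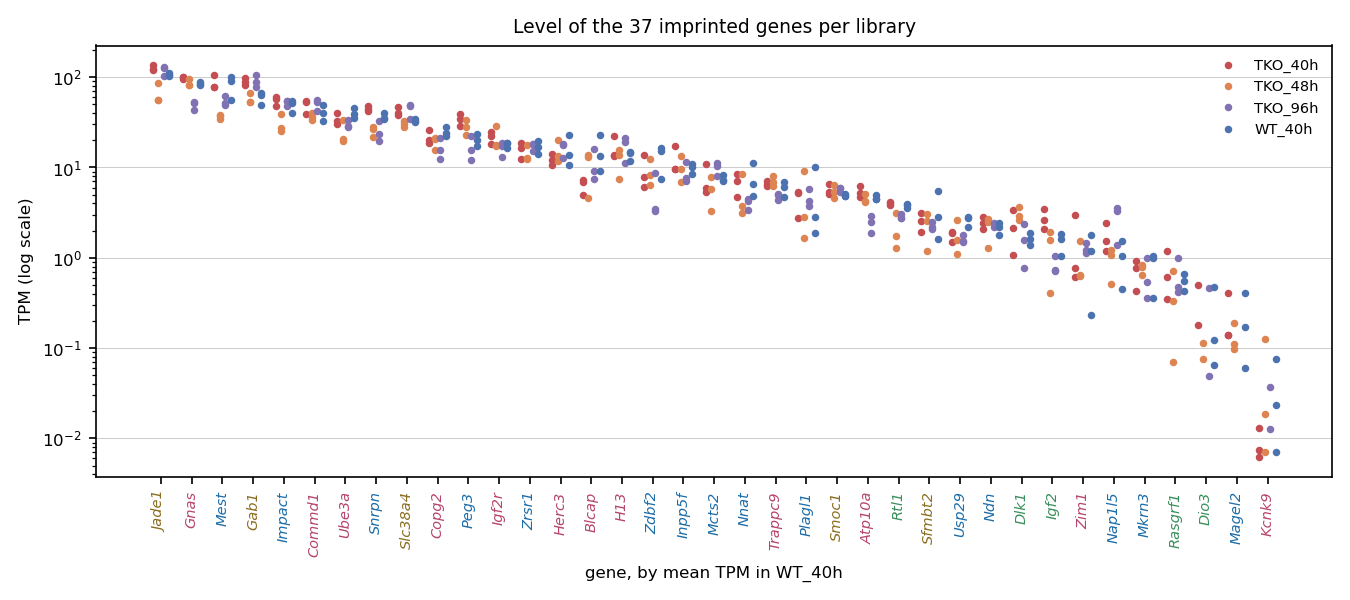
TPM of the 37 imprinted genes in each of the 12 libraries (y axis, log scale), ordered along the x axis by their mean in WT_40h. Gene names are coloured blue for paternally expressed genes with a maternally methylated DMR, red for maternally expressed or biased genes, green for genes with a paternally methylated DMR and brown for H3K27me3-linked genes; values of 0 are not drawn. Jade1 is highest at a mean of 107 TPM in WT_40h, and 5 genes lie under 1 TPM there. The groups are drawn side by side, but differences between them are not read from this scale.

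At matched priming, most imprinted genes were not called different between TKO and WT. Peg3 and Plagl1, both paternally expressed and under a maternally methylated DMR, were higher in TKO_40h than in WT_40h, and no tested member was called lower in the fit of all 12 libraries. The count of 2 of 35 members (5.71%) stands beside 3.1% of all 16178 genes tested that were called in this comparison in either direction (1.62% of all genes tested higher, 1.48% lower). By edgeR without adjustment, 4 members were higher and 1 lower at a p under 0.05, and DESeq2 called 3 higher (Peg3, Plagl1 and Jade1) and 0 lower (8.57% of 35, beside 4.82% of all genes with an adjusted p). The libraries of both groups did not overlap in CPM for 9 of the 35 members (25.7%), the same share as over all genes tested (25.7%). The median log2 fold change over the 35 members was 0.04, with 22 values above 0 and 13 below, beside a median of about 0 over all genes tested. For 25 of the 35 members, both bounds of the 95% interval lay within a 2-fold change, that is between -1 and 1 on the log2 scale. For the other 10 (Plagl1, Magel2, Mkrn3, Nap1l5, Zdbf2, Zim1, Blcap, Igf2, Dlk1 and Rasgrf1) a 2-fold change in at least 1 direction was within the interval.

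**Figure D2:**
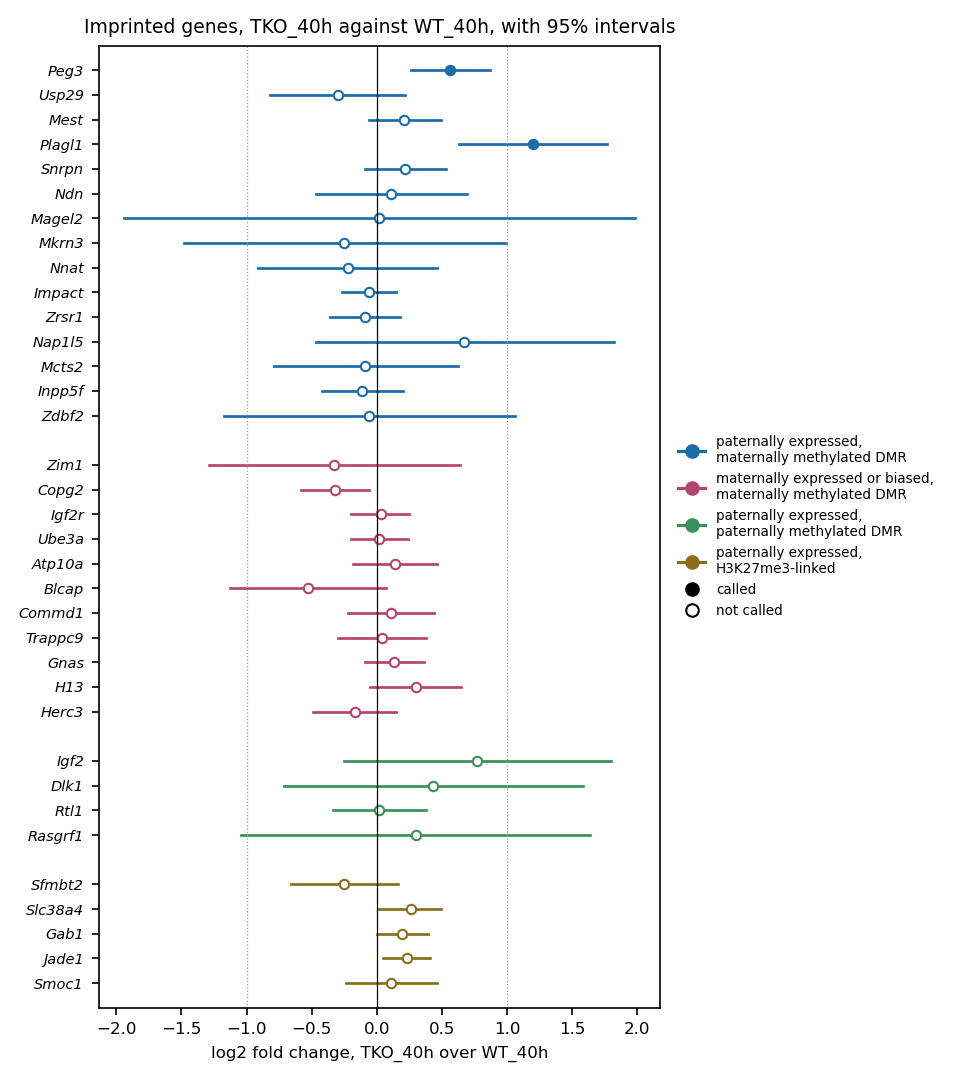
Log2 fold change of TKO_40h over WT_40h (x axis) for the 35 imprinted genes tested (y axis), with 95% intervals from the edgeR fit. Filled points are called at an adjusted p below 0.05, open points are not, colours are the 4 classes and dotted lines mark a 2-fold change. Peg3 (0.56) and Plagl1 (1.20) are the filled points.

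Peg3 encodes a zinc finger protein. It had 424, 402 and 310 CPM in TKO_40h, against 221, 261 and 287 CPM in WT_40h, and the groups did not overlap. The log2 fold change was 0.56 ± 0.15 (SE; adjusted p = 0.041). The call was kept without TKO_40h replicate 3 (adjusted p = 0.03) and lost with any other library left out: without TKO_40h replicate 1 or 2 the adjusted p was 0.2 or 0.16, and without WT_40h replicate 1, 2 or 3 it was 0.19, 0.13 or 0.064. An offset for effective transcript length gave 0.66 with an adjusted p of 0.081. The transcript Peg3-201 held 86.4% of the gene's counts. Its head-to-head neighbour Usp29, a deubiquitinase gene, had 9.12 to 12.7 CPM in TKO_40h and 12.2 to 14.1 CPM in WT_40h (log2 fold change -0.30 ± 0.25, adjusted p = 0.64). Zim1, the maternally expressed zinc finger gene beside them, had 2.49 to 3.61 CPM in TKO_40h and 2.63 to 5.21 CPM in WT_40h.

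Plagl1, which encodes a zinc finger transcription factor known as a growth suppressor, needs to be read by transcript. Summed per gene it had 15.1, 17.1 and 12.9 CPM in TKO_40h, 17, 22.5 and 16.2 in TKO_48h and 25.7, 21.6 and 12.8 in TKO_96h, against 5.9, 6.01 and 7.74 CPM in WT_40h. Every TKO library was above every WT library. The log2 fold change was 1.20 ± 0.27 (adjusted p = 0.019) for TKO_40h, 1.51 ± 0.27 (adjusted p = 0.003) for TKO_48h and 1.61 ± 0.27 (adjusted p = 0.00034) for TKO_96h, each over WT_40h. These 3 values share the WT_40h libraries. At 40 h the adjusted p was 0.067 and 0.094 without TKO_40h replicate 1 and 2, and 0.089 and 0.093 without WT_40h replicate 1 and 2. Within TKO, longer priming gave 0.31 ± 0.26 at 48 h and 0.41 ± 0.26 at 96 h over TKO_40h, neither of which was called (adjusted p = 0.59 and 0.35).

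The files list 25 Plagl1 transcripts, and 3 of them passed the filter: the protein-coding Plagl1-201, Plagl1-202 and Plagl1-203, of 3946, 5260 and 3897 bases. Their starts lie close together, at chr10:13090832, chr10:13090788 and chr10:13090835 on the plus strand. The estimated split between them changed from library to library within a group. Plagl1-203 took 72.1% of the gene's counts in TKO_40h replicate 1, 16.3% in replicate 2 and 0% in replicate 3, whereas Plagl1-201 took 45.6% in replicate 3. In WT_40h, Plagl1-202 took 20.1, 77.6 and 26.5% in replicates 1 to 3. By edgeR no single Plagl1 transcript was called in any of the 5 comparisons. For Plagl1-202 the log2 fold change over WT_40h was 1.43 ± 0.68 in TKO_40h (adjusted p = 0.91) and 2.24 ± 0.70 in TKO_96h (adjusted p = 0.23), and DESeq2 called it in TKO_96h.

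The sum of these 3 long transcripts varied little within TKO_40h and WT_40h. It was 13.9, 14.7 and 12.4 CPM in TKO_40h, 16.9, 18.5 and 15.6 in TKO_48h and 24.8, 21.2 and 11.6 in TKO_96h, against 4.93, 4.63 and 4.07 CPM in WT_40h. In place of the gene sum, it gave a log2 fold change of 1.59 ± 0.28 at 40 h (adjusted p = 0.0032), 1.91 ± 0.28 at 48 h (adjusted p = 0.00054) and 2.08 ± 0.28 at 96 h (adjusted p = 3.4e-05) over WT_40h, a sum chosen after the values were seen. The other 22 transcripts, of 336 to 1237 bases, had 1.17, 2.48 and 0.488 CPM in TKO_40h, against 0.97, 1.33 and 3.7 CPM in WT_40h. They held 7.78, 14.4 and 3.78% of the gene's counts in TKO_40h, against 16.5, 22.4 and 47.7% in WT_40h. The TPM of the whole gene did not show the difference and averaged 4.46 in TKO_40h and 4.98 in WT_40h. The TPM of the 3 long transcripts was 2.24, 1.83 and 1.84 in TKO_40h, against 0.733, 0.525 and 0.567 in WT_40h. That of the other 22 was 2.96, 3.59 and 0.921 in TKO_40h, against 1.17, 2.27 and 9.67 in WT_40h. The gene-level fit with an offset for effective length gave -0.10 at 40 h (adjusted p = 0.98), 0.08 at 48 h (adjusted p = 0.97) and -0.05 at 96 h (adjusted p = 0.97) over WT_40h. The gene-level call thus depends on that offset.

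**Figure D3:**
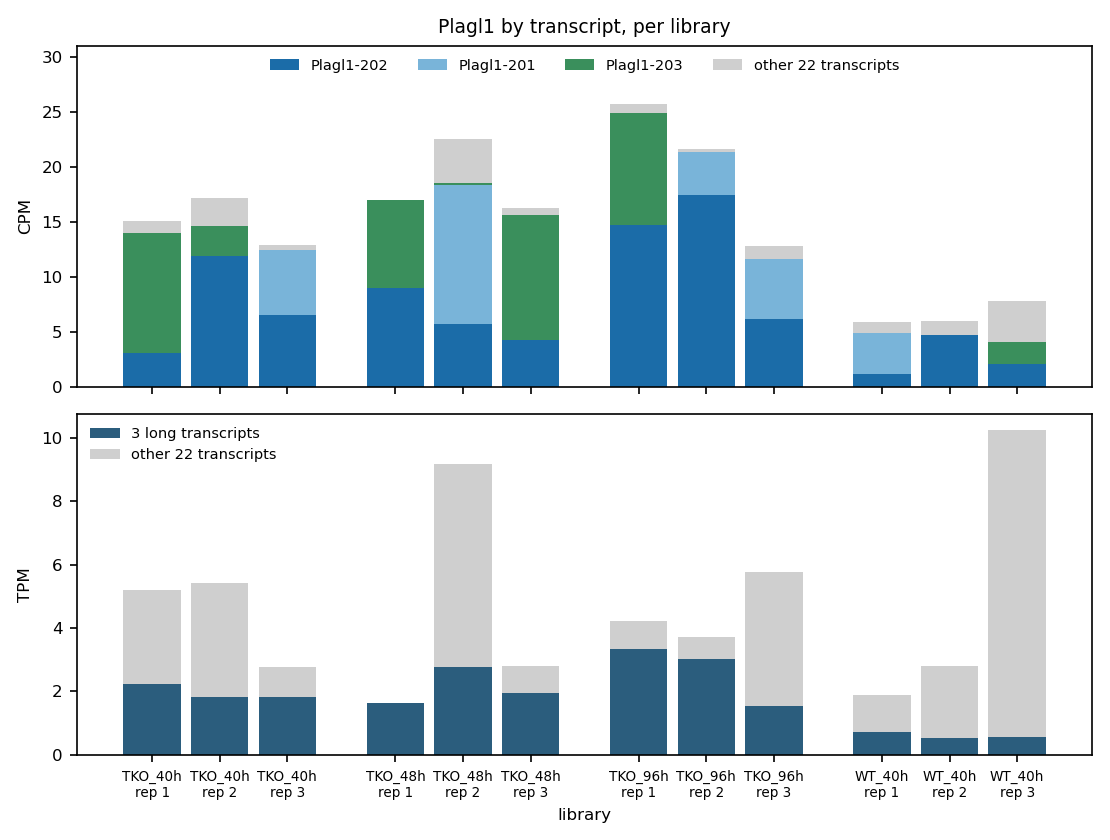
Plagl1 in each library (x axis), split by transcript. The upper panel gives CPM, stacked for Plagl1-202, Plagl1-201, Plagl1-203 and the other 22 transcripts; the lower panel gives TPM for the 3 long transcripts together and for the other 22. The long transcripts sum to 12.4 to 14.7 CPM in TKO_40h and 4.07 to 4.93 CPM in WT_40h, and the other 22 transcripts hold more TPM than the long ones in TKO_40h replicates 1 and 2, TKO_48h replicate 2, TKO_96h replicate 3 and each WT_40h library.

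The other 13 genes of the first class were not called at matched priming, and the class median was -0.06. Mest, which encodes a protein of the hydrolase fold, had 285, 236 and 226 CPM in TKO_40h, against 186, 221 and 236 CPM in WT_40h, and the groups overlapped. Snrpn, which encodes a spliceosomal protein, had 133, 123 and 121 CPM in TKO_40h, against 104, 104 and 116 CPM in WT_40h. These groups did not overlap, but the log2 fold change of 0.22 ± 0.15 was not called (adjusted p = 0.53). Impact, a regulator of the kinase GCN2, had 139, 132 and 142 CPM in TKO_40h, against 138, 156 and 137 CPM in WT_40h. Zrsr1, a gene related to a splicing factor subunit, had 105, 119 and 83.2 CPM in TKO_40h, against 108, 118 and 101 CPM in WT_40h. The intervals of Impact (-0.27 to 0.15) and Zrsr1 (-0.36 to 0.18) lay well inside a 2-fold change. The other genes at the Snrpn locus were low: Ndn averaged 13.8 ± 1.65 CPM in TKO_40h and 12.7 ± 2.16 CPM in WT_40h (SD, n = 3), and Magel2 and Mkrn3 stayed under 5 CPM in both groups.

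Zdbf2, a zinc finger gene, varied widely between replicates in counts, and edgeR called it in none of the 5 comparisons. It had 43.1, 102 and 67.5 CPM in TKO_40h, 99, 89.7 and 134 in TKO_48h and 29.1, 71.7 and 30.5 in TKO_96h, against 156, 54.3 and 9.4 CPM in WT_40h. The coefficient of variation in WT_40h was 103%, against a median of 8.68% over the 7360 genes with at least 20 CPM there, and 2 of those genes had a higher one. The files list 3 Zdbf2 transcripts, and each of them held the most counts in at least 1 library. Its 2 main transcripts, Zdbf2-201 and Zdbf2-202, held 66.9 and 27.3% of the gene's counts and moved apart as well. Zdbf2-201 had 110, 2.8 and 4.27 CPM in WT_40h, and Zdbf2-202, which starts upstream of it, had 41, 40.7 and 0 CPM. The interval of TKO_40h over WT_40h ran from -1.17 to 1.06 on the log2 scale. By TPM the variation was smaller, with a coefficient of variation of 37.7% in WT_40h, and the values were 3.46, 8.69 and 3.28 TPM in TKO_96h, against 15.4, 16.6 and 7.48 TPM in WT_40h. With the offset for effective length Zdbf2 was called lower in TKO_96h than in WT_40h (-1.51 ± 0.36, adjusted p = 0.014), whereas without it the change was -0.75 ± 0.55 (adjusted p = 0.38), or -1.26 ± 0.39 when WT_40h replicate 3 was left out (adjusted p = 0.042). The TPM and the offset depend on how the counts were divided among the 3 transcripts. In WT_40h replicate 3 the 2 main ones had 4.27 and 0 CPM, against 9.4 CPM for the gene, so the rest lay with the third.

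Of the maternally expressed or biased genes, 11 of 12 were tested. None was called in TKO_40h against WT_40h by DESeq2 or by the edgeR fit of all 12 libraries, and 1 was lower at an unadjusted p under 0.05. Igf2r, the receptor that clears IGF2 from the cell surface, had 277, 253 and 258 CPM in TKO_40h, against 263, 241 and 270 CPM in WT_40h. Its log2 fold change was 0.03 ± 0.11, with a 95% interval of -0.20 to 0.25. Ube3a, a ubiquitin ligase gene, had 172, 177 and 206 CPM in TKO_40h, against 187, 185 and 175 CPM in WT_40h (0.02 ± 0.10). Gnas, which encodes the stimulatory G protein alpha subunit, had 242, 239 and 239 CPM in TKO_40h, against 219, 228 and 210 CPM in WT_40h (0.13 ± 0.11, adjusted p = 0.63). Copg2, a subunit gene of the COPI vesicle coat, had 92.6, 94 and 85.1 CPM in TKO_40h, against 118, 108 and 112 CPM in WT_40h, and was the gene below the unadjusted threshold (-0.32 ± 0.12, adjusted p = 0.21). With only the 2 groups compared, edgeR called Copg2 lower (-0.32 ± 0.09, adjusted p = 0.037). The remaining tested genes ran from -0.53 for Blcap to 0.30 for H13, a signal peptide peptidase gene. Kcnk9, a potassium channel gene, summed to 4 counts over the TKO_40h libraries and 17 over the WT_40h libraries.

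The genes under paternally methylated DMRs were mostly low and imprecise. Of the 4 tested, none was called in TKO_40h against WT_40h by edgeR or DESeq2, and 0 passed an unadjusted p under 0.05. Igf2, the growth factor gene controlled by the H19 DMR, had 8.29, 5.98 and 3.72 CPM in TKO_40h, against 5.01, 3.34 and 2.07 CPM in WT_40h. The interval of its log2 fold change was -0.25 to 1.80, and 61.9% of its 31-base words also occur in the readthrough gene Gm49394, so its counts are uncertain. Rtl1, a retrotransposon-derived gene of the Dlk1-Meg3 locus known for its role in the placenta, was the best measured of them. It had 40.6, 42.4 and 36.8 CPM in TKO_40h, against 36.7, 40.7 and 40.5 CPM in WT_40h (0.02 ± 0.17). Dlk1 and Rasgrf1 stayed at or below 6 CPM in both groups. Dio3 summed to 12 counts over TKO_40h and 12 over WT_40h. The noncoding partners H19, Airn, Meg3, Rian, Mirg, Peg13, Nespas and Snhg14 are not analysed here.

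The 5 H3K27me3-linked genes included the most precisely measured members. In the edgeR fit of all 12 libraries none was called in TKO_40h against WT_40h, 2 were higher at an unadjusted p under 0.05, and DESeq2 called 1 higher, Jade1. It had 567, 549 and 550 CPM in TKO_40h, against 474, 478 and 469 CPM in WT_40h (0.23 ± 0.09 on the log2 scale, adjusted p = 0.18). With only the 2 groups compared, edgeR called Jade1 higher as well (0.23 ± 0.05, adjusted p = 0.011). Slc38a4, an amino acid transporter gene, had 170, 184 and 199 CPM in TKO_40h, against 162, 155 and 145 CPM in WT_40h (0.26 ± 0.11, adjusted p = 0.26). Gab1, an adaptor of receptor tyrosine kinases, had 326, 328 and 337 CPM in TKO_40h, against 283, 299 and 284 CPM in WT_40h (0.19 ± 0.09, adjusted p = 0.33). Sfmbt2 (-0.25 ± 0.20) and Smoc1 (0.11 ± 0.17) overlapped between the groups.

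With 8 h more of priming, 3 members fell within TKO. By edgeR, 3 of 35 members were called lower and 0 higher in TKO_48h against TKO_40h, where 5.49% of all genes were called (2.57% higher, 2.92% lower); 3 members were higher at an unadjusted p under 0.05, and DESeq2 called 0 higher and 4 lower, the same 3 and Snrpn, beside 7.75% of all genes. Libraries did not overlap for 11 of the 35 members (31.4%), beside 24% of all genes tested. Jade1 fell to 364, 360 and 343 CPM in TKO_48h, against 567, 549 and 550 CPM in TKO_40h (-0.64 ± 0.09, adjusted p = 0.00022). Mest fell to 172, 123 and 144 CPM in TKO_48h, against 285, 236 and 226 CPM in TKO_40h (-0.76 ± 0.13, adjusted p = 0.0023). Rtl1 fell to 19.1, 31.7 and 21.9 CPM in TKO_48h, against 40.6, 42.4 and 36.8 CPM in TKO_40h (-0.72 ± 0.18, adjusted p = 0.022). With the length offset the adjusted p of Rtl1 was 0.11, and with only the 2 groups compared it was 0.067. The Rtl1 call was also lost without TKO_40h replicate 1 or 2 (adjusted p = 0.085 or 0.088) and without TKO_48h replicate 1 or 3 (0.089 or 0.094). Snrpn, at 90.9, 77 and 98.2 CPM in TKO_48h, was just short of the threshold by edgeR (-0.50 ± 0.15, adjusted p = 0.056). Summed with Gm38393, a predicted gene that shares sequence with it, it was called (-0.58 ± 0.13, adjusted p = 0.011).

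Against WT_40h, TKO_48h had 2 members called higher (Peg3 and Plagl1) and 3 lower (Mest, Rtl1 and Jade1), 14.3% of 35, where 5.66% of all genes were called (2.84% higher, 2.82% lower). DESeq2 called 3 higher, adding Igf2r, and 4 lower, adding Impact, beside 8.58% of all genes. Peg3 had 403, 395 and 392 CPM in TKO_48h, against 221, 261 and 287 CPM in WT_40h (0.63 ± 0.15, adjusted p = 0.016; 0.088 and 0.059 without WT_40h replicate 1 and 2). The log2 fold change was -0.55 ± 0.13 for Mest (adjusted p = 0.02), -0.69 ± 0.18 for Rtl1 (adjusted p = 0.026) and -0.41 ± 0.09 for Jade1 (adjusted p = 0.0078). For Mest the adjusted p was 0.088 without TKO_48h replicate 3 and 0.077 and 0.12 without WT_40h replicate 2 and 3. For Rtl1 it was 0.12 and 0.11 without TKO_48h replicate 1 and 3 and 0.06, 0.091 and 0.093 without WT_40h replicates 1 to 3, and for Jade1 it was 0.064 without TKO_48h replicate 3. With the length offset the adjusted p was 0.13 for Rtl1 and 0.057 for Jade1, and with only the 2 groups compared it was 0.07 for Rtl1. Mest and Copg2 overlap at their 3′ ends and share 22% of the 31-base words of Mest. Summed together they gave -0.38 over WT_40h, which was not called (adjusted p = 0.061), and -0.43 over TKO_40h, which was (adjusted p = 0.036), a sum chosen after the values were seen. Igf2r had 357, 297 and 305 CPM in TKO_48h (0.31 ± 0.11 over WT_40h, adjusted p = 0.1), Ube3a had 142, 164 and 141 CPM (-0.29 ± 0.11, adjusted p = 0.12) and Impact had 118, 115 and 114 CPM (-0.31 ± 0.10, adjusted p = 0.082).

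After 96 h of priming more members had fallen. In TKO_96h against TKO_40h, 7 of 35 members were called lower (20%) and 0 higher, where 12.1% of all genes were called (4.94% higher, 7.2% lower). By edgeR 1 member was higher at an unadjusted p under 0.05, and DESeq2 called 7 lower and 1 higher (Zim1), beside 14.2% of all genes. The 7 genes lay in the 2 classes of the maternally methylated DMRs, which hold 15 and 11 of the 35 tested members. The other 2 classes have 4 and 5 tested genes, too few to set the classes apart. Peg3, Mest, Snrpn, Magel2 and Inpp5f are in the paternally expressed class (5 of 15 tested). Gnas and Atp10a are in the maternally expressed or biased class (2 of 11 tested). The classes are by gene, and the expressed copy was not measured in these cells. Gnas and Inpp5f have imprinted and non-imprinted promoters, whose transcripts are summed here. Inpp5f-201 held 58.8% of the Inpp5f counts and Gnas-208 held 64.1% of the Gnas counts. In TKO_96h against WT_40h, 8 members were lower, the same 7 and Copg2, and 2 were higher (Plagl1 and Gab1), 28.6% of 35 beside 19.2% of all genes (9.1% higher, 10.1% lower). DESeq2 called 8 lower and 3 higher there, adding Jade1, beside 21.2% of all genes. Both comparisons use the TKO_96h libraries, so they are not independent of each other. In TKO_96h 2 of the 5 germ cell markers, Prdm1 and Tfap2c, were also called lower than in WT_40h (-1.49 ± 0.23, adjusted p = 0.00016, and -0.73 ± 0.17, adjusted p = 0.0051). Prdm14 (-0.05 ± 0.25), Nanos3 (-0.18 ± 0.76) and Dnd1 (0.28 ± 0.49) were not called there or against TKO_40h. The part of these markers in the changes of the imprinted genes was not tested.

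Gnas had 111, 119 and 137 CPM in TKO_96h, against 242, 239 and 239 CPM in TKO_40h and 219, 228 and 210 CPM in WT_40h. The log2 fold change was -0.97 ± 0.11 over TKO_40h (adjusted p = 5.1e-06) and -0.84 ± 0.11 over WT_40h (adjusted p = 2.1e-05). Atp10a, a phospholipid flippase gene, had 21.1, 22.5 and 17.1 CPM in TKO_96h, against 52, 41.6 and 42.7 CPM in TKO_40h and 43.6, 40.7 and 39.2 CPM in WT_40h. It fell by 1.16 ± 0.16 on the log2 scale relative to TKO_40h (adjusted p = 6.7e-05) and by 1.02 ± 0.16 relative to WT_40h (adjusted p = 0.00017). Both genes kept their call with every library left out in turn.

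Peg3 had 136, 219 and 183 CPM in TKO_96h, below the 424, 402 and 310 CPM of TKO_40h and the 221, 261 and 287 CPM of WT_40h. The log2 fold change was -1.08 ± 0.15 over TKO_40h (adjusted p = 6.8e-05) and -0.51 ± 0.15 over WT_40h (adjusted p = 0.019). The second call was lost without TKO_96h replicate 1 (0.11) and without WT_40h replicate 2 or 3 (0.064 or 0.11). Peg3 was thus above WT_40h in TKO_40h and TKO_48h and below it in TKO_96h. Mest had 156, 137 and 169 CPM in TKO_96h, close to TKO_48h, with a log2 fold change of -0.69 ± 0.13 over TKO_40h (adjusted p = 0.0017) and -0.48 ± 0.13 over WT_40h (adjusted p = 0.016). Against WT_40h, the adjusted p of Mest was 0.082 without TKO_96h replicate 2 and 0.062 and 0.1 without WT_40h replicate 2 and 3. With the length offset, Peg3 over WT_40h was -0.38 (adjusted p = 0.16), and the adjusted p of Mest was 0.069 against TKO_40h and 0.051 against WT_40h.

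Snrpn had 95.3, 60.3 and 59.6 CPM in TKO_96h, against 133, 123 and 121 CPM in TKO_40h and 104, 104 and 116 CPM in WT_40h (-0.81 ± 0.15 and -0.59 ± 0.15, adjusted p = 0.0013 and 0.0096). The call against WT_40h was lost without TKO_96h replicate 2 or 3 (0.061 or 0.058) and without WT_40h replicate 3 (0.056). The predicted gene Gm38393 holds 23.7% of the 31-base words of Snrpn and averaged 54.1 ± 11.1 CPM in TKO_96h, against 90.3 ± 11.4 in TKO_40h and 86.2 ± 4.76 CPM in WT_40h (SD, n = 3). The sum of both gave -0.78 over TKO_40h (adjusted p = 0.00038) and -0.63 over WT_40h (adjusted p = 0.0017). Magel2, a MAGE family gene of the same locus, had 0 counts in each TKO_96h library, against 7, 8 and 24 in TKO_40h (39 in all) and 4, 10 and 22 in WT_40h (36 in all). With a floor of 3 counts over the group it was at least 11.9-fold lower than in TKO_40h and at least 10.8-fold lower than in WT_40h (adjusted p = 0.011 and 0.0076); the call against TKO_40h was lost without TKO_40h replicate 3 (0.052). Replicate 3 held most of the counts in both groups, and without it the bounds were 7.23-fold against TKO_40h and 6.05-fold against WT_40h. Ndn, of the same class and locus, had 13, 12.6 and 14.4 CPM in TKO_96h, against 15.6, 12.5 and 13.1 CPM in TKO_40h (-0.05 ± 0.28, adjusted p = 0.95).

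Inpp5f, a phosphoinositide phosphatase gene, had 30.2, 42 and 37.6 CPM in TKO_96h, against 46.2, 48.9 and 58.2 CPM in TKO_40h and 56, 59.3 and 50.3 CPM in WT_40h. The log2 fold change was -0.48 ± 0.15 over TKO_40h (adjusted p = 0.044) and -0.59 ± 0.15 over WT_40h (adjusted p = 0.0096). Against TKO_40h the adjusted p was 0.06, 0.087 and 0.2 without TKO_40h replicates 1 to 3 and 0.19 and 0.089 without TKO_96h replicate 1 and 3; against WT_40h it was 0.058 without TKO_96h replicate 1 and 0.052 without WT_40h replicate 2. With only the 2 groups compared the adjusted p against TKO_40h was 0.057. With the length offset the change of Inpp5f was -0.47 over TKO_40h (adjusted p = 0.27) and -0.26 over WT_40h (adjusted p = 0.54). Copg2 had 57.1, 74.3 and 78.7 CPM in TKO_96h, against 118, 108 and 112 CPM in WT_40h (-0.68 ± 0.13, adjusted p = 0.00073). Gab1 had 344, 369 and 333 CPM in TKO_96h, against 283, 299 and 284 CPM in WT_40h (0.27 ± 0.09, adjusted p = 0.046). Its adjusted p was 0.056 and 0.15 without TKO_96h replicate 1 and 2 and 0.12, 0.078 and 0.12 without WT_40h replicates 1 to 3, and it was 0.11 without the low-count filter. With the length offset Gab1 was called as well, at 0.52 ± 0.13 (adjusted p = 0.023). Its main transcript Gab1-201, with 75.9% of the counts, was not higher in TKO_96h than in WT_40h (-0.08 ± 0.11). The higher transcript was Gab1-202, with 18.9% of the counts (1.35 ± 0.37). By edgeR Gab1-202 was not called (adjusted p = 0.16), whereas DESeq2 called it.

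Other members were not called in TKO_96h against TKO_40h. Jade1 had 540, 538 and 566 CPM in TKO_96h, against 567, 549 and 550 CPM in TKO_40h (-0.02 ± 0.09), so that the lower level of TKO_48h was not seen in TKO_96h. Impact had 157, 135 and 138 CPM in TKO_96h (0.06 ± 0.10 over TKO_40h), Zrsr1 had 108, 95.9 and 114 CPM (0.05 ± 0.13) and Slc38a4 had 194, 191 and 159 CPM (-0.02 ± 0.11). Igf2r had 192, 237 and 234 CPM in TKO_96h, against 277, 253 and 258 CPM in TKO_40h, with a log2 fold change of -0.25 ± 0.11 that was not called (adjusted p = 0.15). Ube3a had 149, 146 and 160 CPM in TKO_96h (-0.29 ± 0.11 over TKO_40h, adjusted p = 0.086). Rtl1 had 28.7, 27.7 and 29.3 CPM in TKO_96h (-0.48 ± 0.18 over TKO_40h, adjusted p = 0.08). None of the 4 tested genes under paternally methylated DMRs and none of the 5 H3K27me3-linked genes was called in TKO_96h against TKO_40h by edgeR or DESeq2. At an unadjusted p under 0.05 by edgeR, Rtl1 was lower. The log2 fold changes of the 4 genes under paternally methylated DMRs were all below 0, with a median of -0.49. The median of the H3K27me3-linked genes was 0.03.

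**Figure D4:**
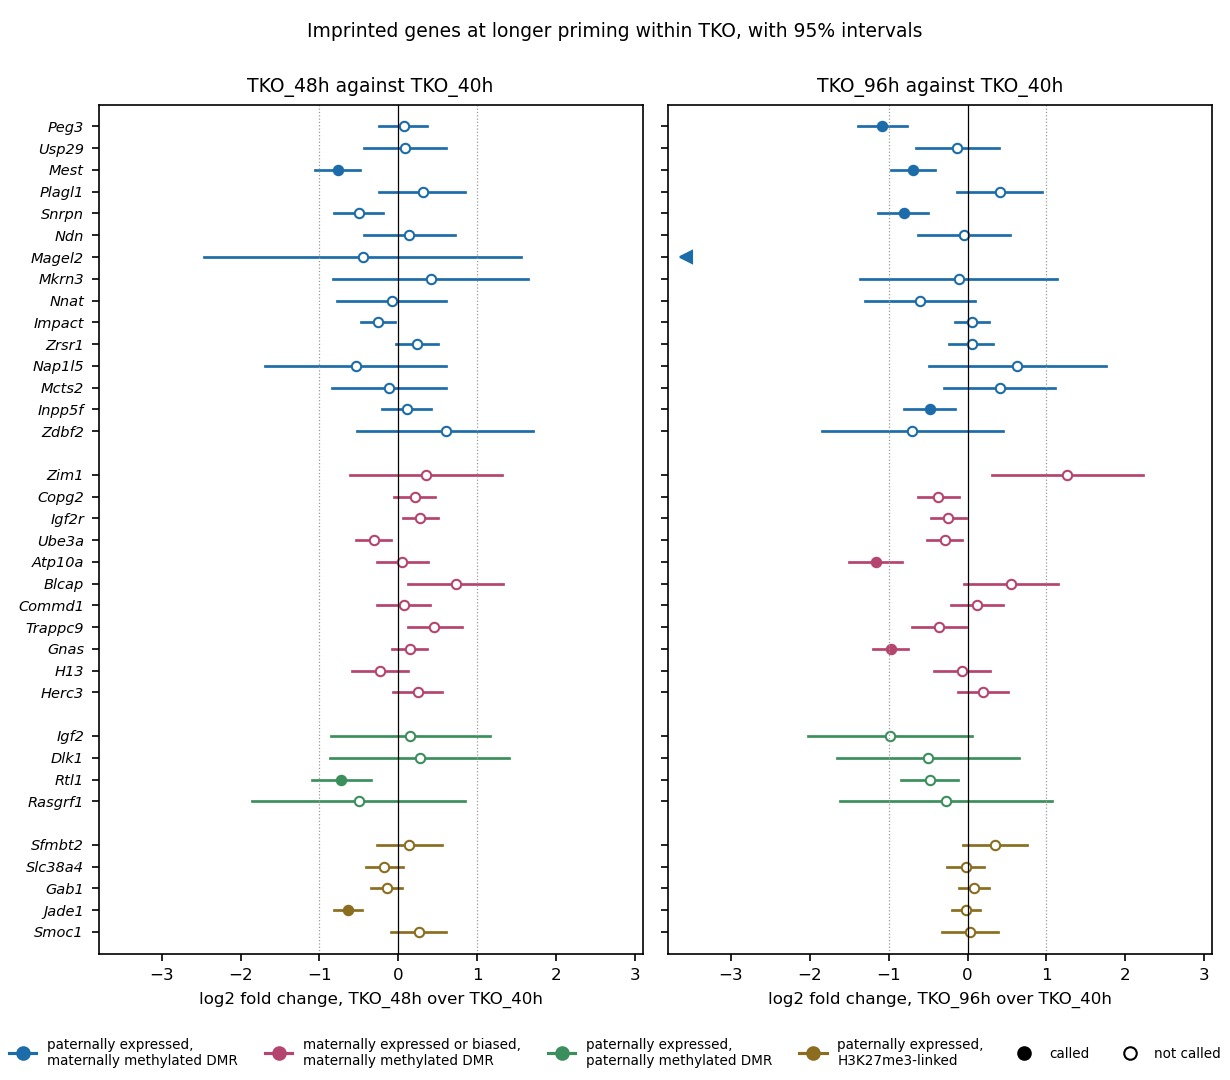
Log2 fold change of TKO_48h (left) and TKO_96h (right) over TKO_40h (x axes) for the 35 imprinted genes tested, with 95% intervals; filled points are called. Both panels share the TKO_40h libraries. The triangle marks the bound for Magel2, which had 0 counts in TKO_96h and was at least 11.9-fold lower. Mest, Rtl1 and Jade1 are filled at 48 h, and Peg3, Mest, Snrpn, Inpp5f, Atp10a and Gnas, with Magel2, are called at 96 h.

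**Figure D5:**
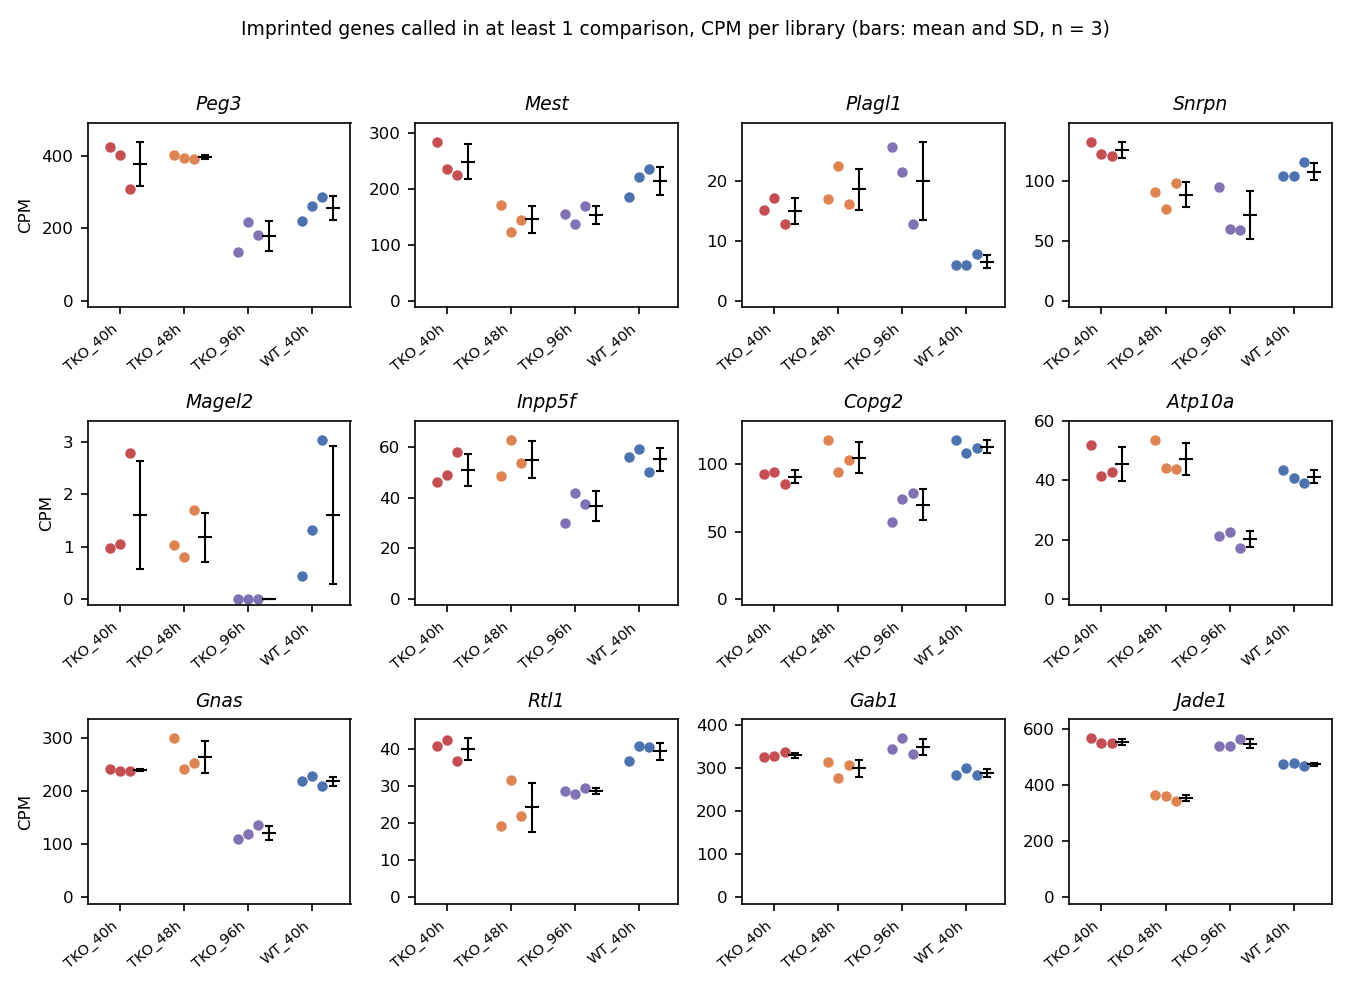
CPM per library (y axes, from 0) of the 12 imprinted genes called in at least 1 of the 5 comparisons, by group (x axes). Dots are libraries, and the bar beside them is the mean with its SD (n = 3). Plagl1 is lowest in WT_40h, Jade1 and Rtl1 are lowest in TKO_48h, and Gnas, Atp10a and Peg3 are lowest in TKO_96h.

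At the level of single transcripts the members were less well resolved. Of 245 transcripts of the 37 genes, 125 were tested. By edgeR 0 were called in TKO_40h against WT_40h, where 0.0153% of the 45827 transcripts tested were called; 8 were higher and 1 lower at an unadjusted p under 0.05, and DESeq2 called 2 of the 119 to which it gave an adjusted p (1.68%), beside 495 of all transcripts (1.14%). One was Peg3-203, with 347, 327 and 292 counts in TKO_40h, against 100, 124 and 149 counts in WT_40h. The other was Slc38a4-203, with 0, 0 and 79 counts in TKO_40h, against 0 in each WT_40h library, so that it rests on 1 library. DESeq2 also called 6 transcripts in TKO_48h and 11 in TKO_96h against WT_40h, and 2 in TKO_48h and 9 in TKO_96h against TKO_40h, beside 2.14, 5.53, 1.9 and 3.17% of all transcripts. In the same 4 comparisons edgeR called 0, 1, 0 and 3, beside 0.0218, 0.86, 0.072 and 0.524% of all transcripts. The 3 called by edgeR in TKO_96h against TKO_40h were lower. Gnas-208, which starts at chr2:174330089 and held 64.1% of the gene's counts, had 75, 76.3 and 86.3 CPM in TKO_96h, against 173, 167 and 142 CPM in TKO_40h (-1.02 ± 0.13, adjusted p = 0.0057). Peg3-201 had 110, 180 and 153 CPM in TKO_96h, against 364, 344 and 260 CPM in TKO_40h (-1.13 ± 0.18, adjusted p = 0.02). Its call was lost without TKO_40h replicate 1 or 2 and without TKO_96h replicate 1 or 3, with adjusted p up to 0.11, and with only the 2 groups compared (0.13). Atp10a-201, which held 100% of its gene's counts, was called against both TKO_40h (-1.18 ± 0.18, adjusted p = 0.016) and WT_40h (-1.03 ± 0.18, adjusted p = 0.024); leaving out single libraries gave adjusted p of 0.05 to 0.1 and 0.069 to 0.11, using only the 2 groups compared gave 0.093 and 0.088, and no low-count filter gave 0.052 and 0.094.

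Genes that protect or set imprints were read beside them. Of a list of 13 such genes, all tested, Dppa3 and Dnmt3l were higher in TKO_40h than in WT_40h and the 3 targeted methyltransferase genes were lower. Dppa3, which guards maternal methylation in the zygote, averaged 51.5 ± 5.44 CPM in TKO_40h, against 16.7 ± 3.81 CPM in WT_40h (1.63 ± 0.20 on the log2 scale, adjusted p = 0.00015). Dnmt3l, a cofactor of the de novo methyltransferases, averaged 452 ± 12.4 CPM in TKO_40h, against 140 ± 11.8 CPM in WT_40h (1.69 ± 0.12, adjusted p = 6.2e-08). In TKO_96h Dppa3 and Dnmt3l were lower than in TKO_40h (-1.47 ± 0.20, adjusted p = 6.5e-05, and -1.43 ± 0.12, adjusted p = 6.4e-08). Neither was called in TKO_96h against WT_40h (0.15 ± 0.21 and 0.26 ± 0.12). Zfp57 averaged 274 ± 10.1 CPM in TKO_40h, 187 ± 20.1 in TKO_48h and 349 ± 21.4 in TKO_96h, against 223 ± 25.4 CPM in WT_40h. It was called lower in TKO_48h (-0.55 ± 0.11, adjusted p = 0.0059) and higher in TKO_96h (0.35 ± 0.11, adjusted p = 0.039) than in TKO_40h, and higher in TKO_96h than in WT_40h (0.65 ± 0.11, adjusted p = 0.0003). Zfp445, another zinc finger gene known to protect imprints, was lower in TKO_48h than in TKO_40h (-0.58 ± 0.14, adjusted p = 0.017) and than in WT_40h (-0.73 ± 0.14, adjusted p = 0.0037). Trim28, their cofactor, had 797 to 1331 CPM over all 12 libraries and was not called in any of the 5 comparisons. Uhrf1 was higher in TKO_96h than in TKO_40h (0.49 ± 0.10, adjusted p = 0.0028) and than in WT_40h (0.80 ± 0.10, adjusted p = 1.9e-05). Eed was also higher in TKO_96h than in TKO_40h and WT_40h (adjusted p = 0.018 and 0.043). Against TKO_40h, Suz12 was lower in TKO_96h (adjusted p = 0.014) and Setdb1 in TKO_48h (adjusted p = 0.049).

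Markers of other cells differed between the groups. The mesoderm list (8 genes) summed to 24.3 to 37.5 CPM in TKO_40h, 35.9 to 38.7 CPM in TKO_48h and 16.3 to 22.2 CPM in TKO_96h, against 10.8 to 14.6 CPM in WT_40h. Of it, Hand1 was higher in TKO_40h than in WT_40h (2.35 ± 0.43, adjusted p = 0.0047). The endoderm list (7 genes) summed to 28.6 to 32.2 CPM in TKO_40h, 27.6 to 35 CPM in TKO_48h and 10.4 to 21.6 CPM in TKO_96h, against 17.6 to 23.1 CPM in WT_40h, with Afp and Apoa1 at 0 in TKO_96h. The trophoblast list (6 genes) summed to 18.2 to 27 CPM in TKO_40h, 10.1 to 14.9 CPM in TKO_48h and 11.3 to 16.3 CPM in TKO_96h, against 8.01 to 13.6 CPM in WT_40h, with Tpbpa at or near 0. The list of endothelium and blood (6 genes) summed to 64.1 to 76.4 CPM in TKO_40h, 81.6 to 89.5 CPM in TKO_48h and 78.9 to 80.3 CPM in TKO_96h, against 64.1 to 84.9 CPM in WT_40h, most of it Pecam1, which germ cells also express and which was not called in TKO_40h against WT_40h (-0.24 ± 0.13, adjusted p = 0.41). The endothelial genes Cdh5 and Sox18 were called higher in TKO_40h than in WT_40h (adjusted p = 0.046 and 0.013) and in TKO_48h than in WT_40h (adjusted p = 0.036 and 0.0024), and Sox18 also in TKO_96h (adjusted p = 0.0089). Cdh5 had 2.35, 1.86 and 3.37 CPM in TKO_40h and 2.58, 4.28 and 0.142 CPM in TKO_48h, against 0.111, 0.133 and 0 CPM in WT_40h. Sox18 had 5.53, 2.53 and 7.45 CPM in TKO_40h, against 0, 1.07 and 0.138 CPM in WT_40h. Of the same list, Tal1 and Gata1 were not called in any of the 5 comparisons, and Hbb-bh1 was at or near 0. The neural list (5 genes) summed to 86.5 to 106 CPM in TKO_40h, 76.8 to 92.4 CPM in TKO_48h and 119 to 136 CPM in TKO_96h, against 102 to 115 CPM in WT_40h, with Neurog2 at or near 0. Of it, only Tubb3 was called in TKO_96h against WT_40h (1.27 ± 0.25, adjusted p = 0.0014). Sox1 (-0.23 ± 0.16), Pax6 (-0.08 ± 0.17) and Map2 (-0.27 ± 0.39) were not called there. The part of all these markers in the results for the imprinted genes was not tested.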

How the data were processed

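RNA of 12 PGCLC libraries was sequenced with a stranded total RNA kit, per the labels' protocols. The submitters' processing notes name Trim Galore 0.6.2 for trimming and kallisto, without a version, for quantification. The deposited files give estimated counts and TPM per transcript, made by the authors. Transcripts were matched to GENCODE M21 (116728 of 119414, 97.8%; the unmatched held 2.68 to 4.32% of counts), and for each gene the estimated counts of its transcripts were added up and rounded. One edgeR 4.0.16 quasi-likelihood fit (R 4.3.3) covered all 12 libraries, with TMM factors of 0.927 to 1.063 and filterByExpr at a minimum count of 10, with Benjamini-Hochberg adjustment over 16178 genes and a threshold of 0.05. DESeq2 1.42.0, other scalings, no filter, an effective length offset, a replicate block and each library left out were alternatives. CPM of members are scaled by TMM library sizes. Fold changes are given as the TKO group over WT_40h, or the longer over the 40 h priming. Nothing in the labels says that replicates came from separate clones, so p-values cover the spread between these samples.

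The imprinted genes and all lists were chosen with earlier results of these data known. Values per library are given for the genes called in any comparison and for genes of at least 50 CPM; other genes were named for their class or locus after their values were seen. Kallisto divides reads shared between transcripts, so shares of overlapping genes and transcripts are estimates; shared sequence was measured as 31-base words. The code was tested on simulated data.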

Additional observations from a re-analysis of the deposited data

How the results depend on the processing

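Of 27 calls of imprinted genes, 10 kept direction and call under all settings run, 14 changed with a left-out library and 14 with another setting, and the causes were not tested. The count called in TKO_40h against WT_40h was 2. It was 0 with an offset for effective length, 4 with only the 2 groups compared, and 0 to 2 with 1 library left out. With only the 2 groups compared, Copg2 (lower) and Jade1 (higher) were added. In TKO_48h against WT_40h it was 5, against 2 with the offset and 2 to 7 with a library left out. In TKO_96h against WT_40h it was 10, against 6 to 9 with a library left out. In TKO_48h against TKO_40h it was 3, against 5 without the low-count filter and 2 to 4 with a library left out, and in TKO_96h against TKO_40h it was 7, against 5 to 7. For single transcripts of the members, DESeq2 called 2, 6 and 11 in TKO_40h, TKO_48h and TKO_96h against WT_40h, where edgeR called 0, 0 and 1, and 2 and 9 in TKO_48h and TKO_96h against TKO_40h, where edgeR called 0 and 3. Another 16 pairs of gene and comparison were called under other settings only. Without TKO_48h replicate 2 these included Igf2r over WT_40h and Ube3a over WT_40h and TKO_40h, and without TKO_96h replicate 3 Copg2 over TKO_40h. Without the low-count filter each gene took the spread of the trend over genes (211792 degrees of freedom in place of a median of 19.4), so calls made there, such as Zdbf2 in 4 comparisons, do not rest on the gene's own replicates. The Plagl1 difference from WT_40h was lost with the offset, at -0.10 ± 0.57 in TKO_40h, 0.08 ± 0.57 in TKO_48h and -0.05 ± 0.57 in TKO_96h.

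Class medians of log2 fold change in the fit of all 12 libraries are given for TKO_40h, TKO_48h and TKO_96h over WT_40h, then TKO_96h over TKO_40h. They were -0.06, -0.00, -0.43 and -0.13 for paternally expressed genes with a maternally methylated DMR. For maternally expressed or biased genes they were 0.03, 0.17, -0.22 and -0.25, and for H3K27me3-linked genes 0.19, 0.05, 0.21 and 0.03. Under other settings the medians moved as follows. For paternally expressed genes with a maternally methylated DMR, the TKO_40h over WT_40h median was 0.10 under the replicate block (-0.06 to 0.10 with a library left out), the TKO_48h over WT_40h median was -0.19 with the offset (-0.19 to 0.08), and leaving out libraries gave -0.45 to -0.17 for TKO_96h over WT_40h and -0.36 to -0.08 for TKO_96h over TKO_40h. For maternally expressed genes the offset gave 0.13, 0.09 and -0.38 for TKO_40h, TKO_48h and TKO_96h over WT_40h, and TKO_96h over TKO_40h was -0.15 without the filter (-0.21 to -0.06 with a library left out). For H3K27me3-linked genes the offset gave 0.15 and 0.13 for TKO_48h and TKO_96h over WT_40h and 0.02 for TKO_96h over TKO_40h (-0.01 to 0.09 with a library left out). For the 4 tested genes under paternally methylated DMRs the sign held in TKO_40h over WT_40h (0.37, with 0.08 to 0.61 when a library was left out). It also held in TKO_96h over TKO_40h (-0.49, with -0.70 to -0.34 when a library was left out). In the other comparisons the sign was not stable, although the changes were within the spread of the replicates' medians. TKO_48h over WT_40h was 0.25, against -0.21 without the filter and -0.18 with the offset. TKO_96h over WT_40h was -0.14, against -0.46 to 0.04 with a library left out, and TKO_48h over TKO_40h was -0.17, against -0.35 to 0.20.

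Over all genes, 501 were called in TKO_40h against WT_40h, with 181 to 217 when a library was left out and 75 to 1279 under other settings. The offset gave 238 in place of 916 for TKO_48h and 1466 in place of 3099 for TKO_96h against WT_40h, and 203 in place of 888 and 829 in place of 1965 for TKO_48h and TKO_96h against TKO_40h. Same-numbered libraries of different groups did not deviate together (correlations of -0.06 to 0.051 over 18 pairs), so the numbers were not taken to pair them; with the replicate block the Gab1 call in TKO_96h against WT_40h had an adjusted p of 0.053 by edgeR, and that of the transcript Peg3-201 in TKO_96h against TKO_40h one of 0.057. In counts scaled by effective length and library size, 21 in place of 17 members reached 10 in WT_40h. Members with few counts (Kcnk9, Dio3, Magel2, Mkrn3, Nap1l5) are limited by depth.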

Other observations

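Several imprinted genes are retrogenes or have a close paralog elsewhere in the genome, and 6 of these relatives were read in the same fit. Mkrn1, the relative of Mkrn3, was lower in TKO_96h than in TKO_40h (log2 fold change -0.66 ± 0.10, adjusted p = 0.00011) and than in WT_40h (-0.67 ± 0.10, adjusted p = 6.8e-05). Nap1l1, of the family of Nap1l5, was higher in TKO_96h than in TKO_40h (0.42 ± 0.09, adjusted p = 0.0033) and than in WT_40h (0.31 ± 0.09, adjusted p = 0.018), and lower in TKO_48h than in WT_40h (-0.32 ± 0.09, adjusted p = 0.035). Usp26, of the family of Usp29, was lower in TKO_96h than in TKO_40h (-0.80 ± 0.17, adjusted p = 0.003) and than in WT_40h (-0.57 ± 0.17, adjusted p = 0.02), and lower in TKO_48h than in TKO_40h (-0.60 ± 0.17, adjusted p = 0.038). Mcts1, Zrsr2 and Snrpb were not called in any of the 5 comparisons, and none of the 6 was called in TKO_40h against WT_40h by edgeR. Gpr1, beside Zdbf2, was not called in any comparison, with a log2 fold change of -0.40 ± 0.35 in TKO_40h over WT_40h (adjusted p = 0.67).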
